A study of Mus musculus with 20 samples.

Results

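The 31 genes described here encode the enzymes that bring pyruvate into mitochondria, oxidize it through the tricarboxylic acid (TCA) cycle and refill the cycle (anaplerosis). They were chosen by name as the genes of this route, with earlier results of these data known. Each was found in the RNAseq count table of mouse pancreatic islets, 31 of the 28632 genes measured. The table holds 20 libraries of islets that were isolated from 12-week-old mice and kept in culture before RNA was extracted. The deletions were driven by Cre expressed from the *Ins1* locus, so they fall in insulin-producing β-cells and not in the other cells of an islet. The groups are β-Mfn1KO (*Mfn1* loxP/loxP with *Ins1*-Cre, n = 4), β-Mfn2KO (*Mfn2* loxP/loxP with *Ins1*-Cre, n = 5), β-Mfn1/2DKO (both floxed pairs with *Ins1*-Cre, n = 5) and Ctrl (n = 6). The labels call Ctrl wild type, while the methods of the study pool *Ins1*-Cre mice and floxed mice without Cre as Ctrl. The deletion is constitutive, and both sexes are in every group, with 3 of 6 libraries from females in Ctrl, 3 of 4 in β-Mfn1KO and 2 of 5 in each of the other groups. *Mfn1* and *Mfn2* encode mitofusins, the proteins that fuse the outer membranes of mitochondria.

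Glucose reaches the TCA cycle as pyruvate. The mitochondrial pyruvate carrier takes it across the inner membrane, and the pyruvate dehydrogenase complex turns it into acetyl-CoA, unless pyruvate dehydrogenase kinases have switched the complex off by phosphorylation. Phosphatases switch the complex on again. The cycle then passes acetyl-CoA through citrate, oxoglutarate, succinyl-CoA, succinate, fumarate and malate, and pyruvate carboxylase, glutamate dehydrogenase, glutaminase and the malic enzymes add carbon to it or draw carbon from it. In β-cells this oxidation raises ATP after a meal and so sets off insulin release, and pyruvate carboxylase is abundant there. The members are taken in this order below, and *Mdh2* and *Sdhc*, which belong to the cycle but not to the 31, come after them.

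Some features of the libraries touch every result. Libraries held 12.4 to 20.3 M counts in Ctrl, 15.7 to 16.7 in β-Mfn1KO, 15.1 to 59.5 in β-Mfn2KO (2 libraries above 40 M) and 65.5 to 122.9 in β-Mfn1/2DKO, so sequencing depth and the β-Mfn1/2DKO genotype cannot be told apart. The targeted genes followed the labels, counted over all their exons. *Mfn1* was at 1670.2 ± 114 normalized counts in Ctrl, 674 ± 68.1 in β-Mfn1KO, 1721 ± 49.5 in β-Mfn2KO and 797 ± 165 in β-Mfn1/2DKO (mean ± SD). *Mfn2* was at 3505 ± 519, 4352 ± 334, 1577 ± 80.5 and 2084 ± 45.1 in the same order. Of 10 β-cell markers, 10 were lower in β-Mfn1/2DKO than in Ctrl, with a summed level of 2681267 to 3638490 normalized counts per library against 6057558 to 9684565. Of 16 acinar markers, 13 were higher and 1 lower. Their sum was 716205 in β-Mfn1/2DKO replicate 4 and 1838965 in replicate 5, against 20508 to 34047 in replicates 1 to 3, 14700 to 82979 in Ctrl and 22446 to 306586 in β-Mfn2KO. Of 5 endothelial markers, 5 were higher (sums of 7071 to 11478 against 4802 to 7178). Duct markers were higher for 2 of 5, and α-cell and stellate markers for 1 of 4 each. Macrophage markers were lower for 1 of 6, and 0 of 3 δ-cell and 0 of 2 PP-cell markers passed. Every marker of these lists reached 1 normalized count in at least 1 library. In bulk RNA, fewer cells of a type and less RNA per cell cannot be told apart, and the part of cell composition in the values below was not tested beyond the fits with an acinar score and without replicates 4 and 5. The labels number the libraries but do not say that they come from separate mice. A figure legend of the study gives the same n as mice per group, with littermates as Ctrl. The p-values measure the spread between libraries.

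Levels of different members were compared in Ctrl per length, as counts per kb of transcript, scaled to the same sum in each library. *Idh2*, the NADP-dependent isocitrate dehydrogenase of mitochondria, was highest at 180.3 ± 29.2 (SD, n = 6), ahead of fumarase (*Fh1*, 134 ± 17.6), *Pdhb* (124 ± 5.79) and *Ogdh* (119 ± 8.30). *Pcx*, pyruvate carboxylase, stood at 83.8 ± 7.37 and *Pdha1* at 76.1 ± 3.11. The kinases and phosphatases of pyruvate dehydrogenase were lower, between 4.25 for *Pdp1* and 16.9 for *Pdk2*. The liver-type glutaminase *Gls2* (1.49 ± 0.354) and the malic enzyme *Me3* (0.627 ± 0.255) were last. Of the 30 pairs of neighbours in this order, 23 overlapped between their Ctrl libraries, and the 7 that did not overlap include the steps from *Suclg1* down to *Ogdhl*, from *Pdp1* to *Gls2* and from *Gls2* to *Me3*. *Idh2* was in place 1 in all 4 groups. *Fh1* was in place 2 in Ctrl, β-Mfn1KO and β-Mfn2KO and in place 11 in β-Mfn1/2DKO, while *Idh3g* moved from 5 to 2 and *Idh3b* from 10 to 5.

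**Figure D1:**
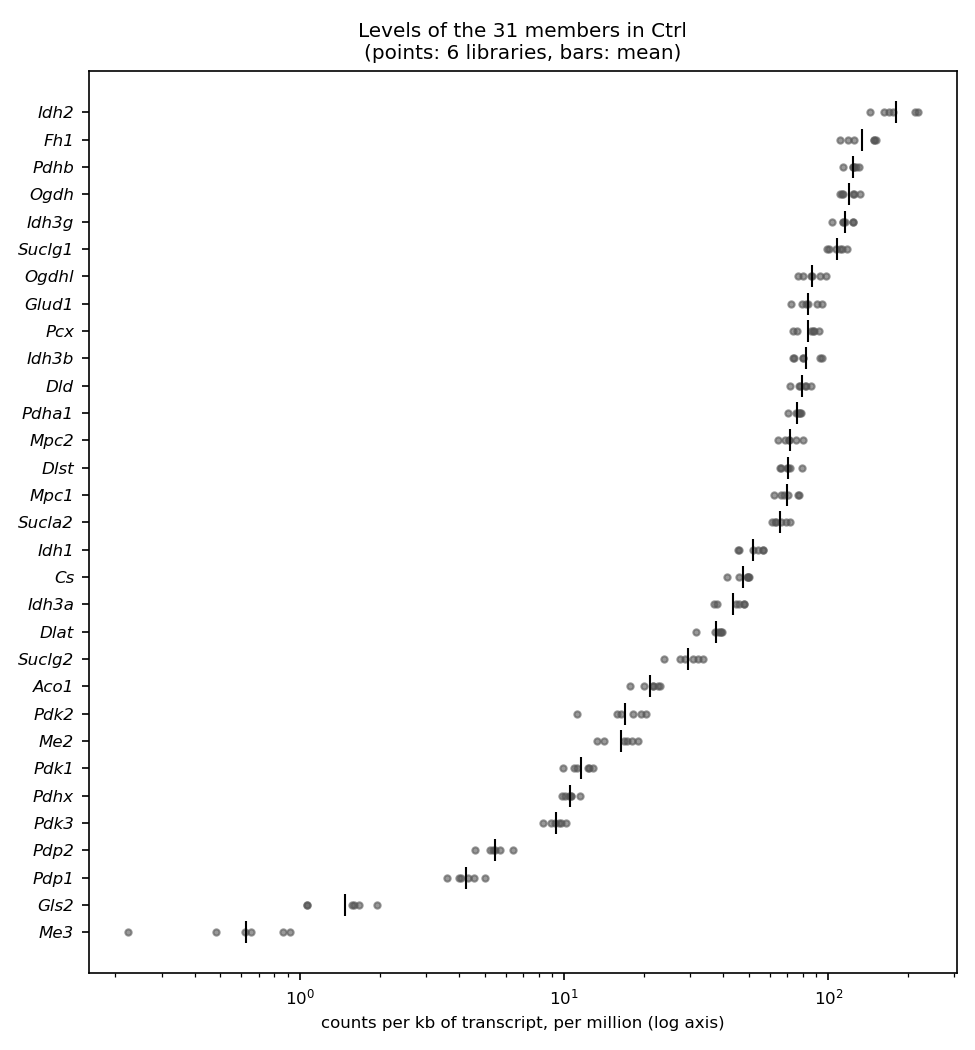
Per-length level of each of the 31 members in the 6 Ctrl libraries, in scaled counts per kb of transcript, on a log axis. Points are libraries and bars their mean. *Idh2* lies at the top with a mean of 180.3 and *Me3* at the bottom with 0.627.

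The summed share of the 31 members in all counts was 0.253 ± 0.0089% in Ctrl (SD, n = 6) and 0.253 ± 0.0124% in β-Mfn1KO (n = 4). It was 0.259 ± 0.0085% in β-Mfn2KO (n = 5) and 0.254 ± 0.0179% in β-Mfn1/2DKO (n = 5). These are shares of library totals, without the scaling behind the normalized counts, so similar shares do not show similar normalized levels. Scaling by totals alone moved the median log2 fold change in β-Mfn1/2DKO against Ctrl from 0.035 to 0.17, over genes with a mean of at least 100 counts. The coefficient of variation had a median over the members of 6.98% in Ctrl, 7.01% in β-Mfn1KO, 5.30% in β-Mfn2KO and 5.77% in β-Mfn1/2DKO, and it was under 10% for 22 members in Ctrl. It was lowest in Ctrl for *Sucla2* (1.89%) and highest for *Me3* (41.2%). In β-Mfn1/2DKO the highest was *Gls2* at 78.5%. In the heat map of all members these rows, *Gls2* and *Me3*, vary most within groups, and the rows that part β-Mfn1/2DKO from the rest are *Fh1*, *Pdp2*, *Idh1* and *Suclg2*.

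**Figure D2:**
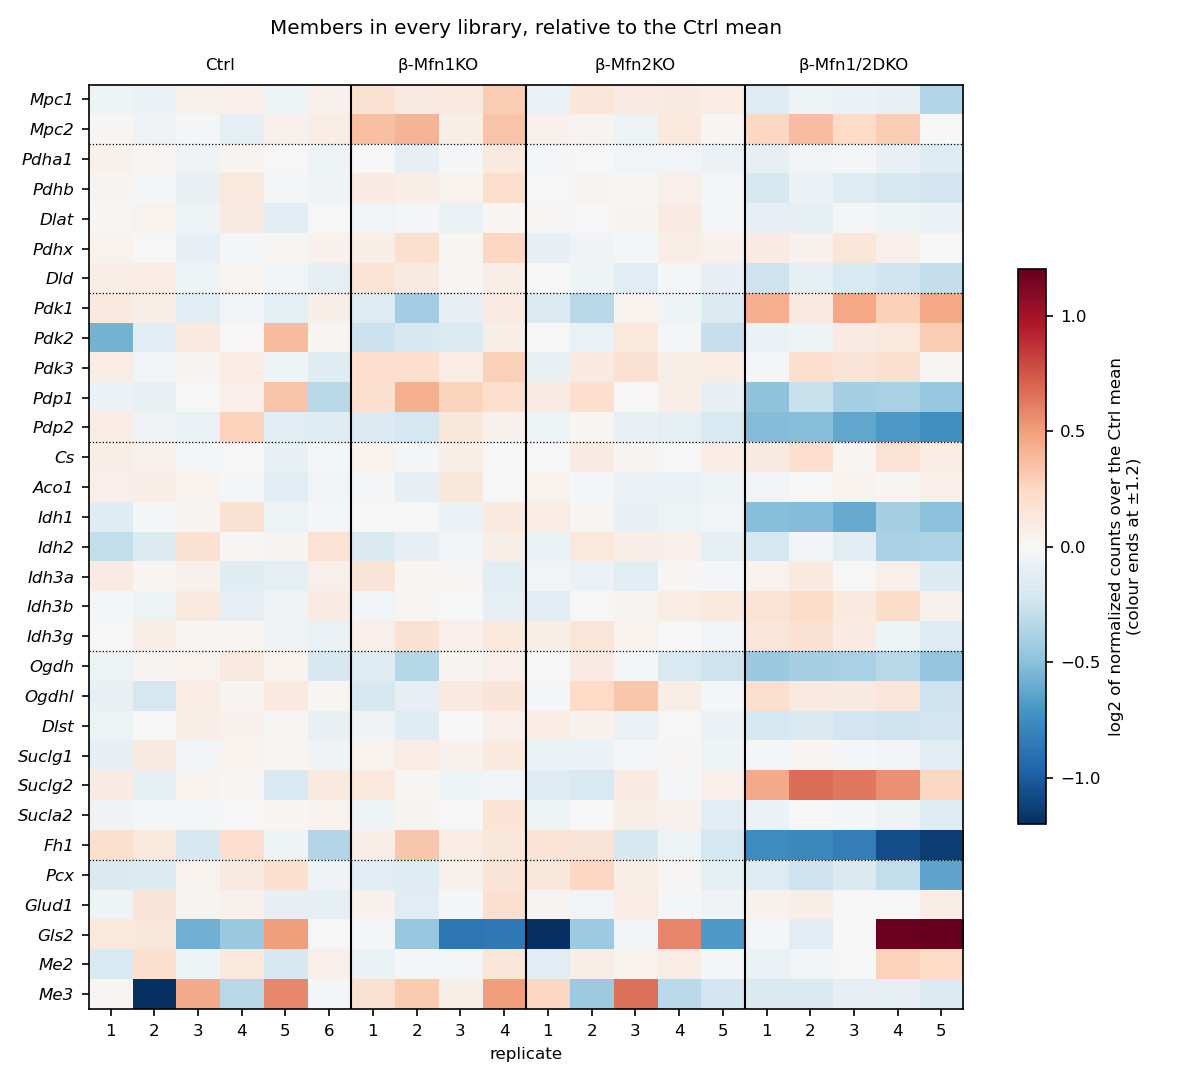
Normalized counts of the 31 members in each of the 20 libraries as log2 of the ratio to the Ctrl mean, with rows in pathway order, columns by group and replicate, and dotted lines between steps. Red is above and blue below the Ctrl mean, and colours end at 1.2 either way. *Fh1*, *Pdp2* and *Idh1* are blue and *Suclg2* is red in all 5 β-Mfn1/2DKO libraries, and *Gls2* is dark red in β-Mfn1/2DKO replicates 4 and 5.

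In the single knockouts no member passed with edgeR. With edgeR's quasi-likelihood fit and p-values adjusted over all 28632 genes, 0 of the 31 members passed an adjusted p of 0.05 in β-Mfn2KO against Ctrl, and 0 had an unadjusted p under 0.05. Of all genes 0.00699% were higher and 0.0489% lower in this comparison. The members' log2 fold changes ran from −0.21 (*Gls2*) to 0.13 (*Ogdhl*), with a median SE of 0.059. In β-Mfn1KO against Ctrl 0 members passed, where 0.00699% of all genes were higher and 0.0210% lower, and 6 had an unadjusted p under 0.05. These were *Mpc1* (0.18, adjusted p = 0.571), *Mpc2* (0.30, adjusted p = 0.303), *Pdp1* (0.28, adjusted p = 0.597), *Pdk3* (0.19, adjusted p = 0.624), *Pdhx* (0.14, adjusted p = 0.646) and *Pdhb* (0.11, adjusted p = 0.648), each with a log2 fold change above 0. DESeq2 passed 1 member in β-Mfn1KO, *Mpc2* (0.29, adjusted p = 0.0484), and 0 in β-Mfn2KO. Without β-Mfn1KO replicate 3, edgeR passed *Mpc2* as well.

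In β-Mfn1/2DKO islets 13 members differed from Ctrl, led by a fall of fumarase and of a pyruvate dehydrogenase phosphatase and by a rise of a succinyl-CoA ligase subunit. Of the 31, 9 were lower (29.0%, against 6.86% of all genes tested) and 4 were higher (12.9%, against 9.59%). As the list was chosen with earlier results of these data known, these shares and those below describe it and test nothing. Genes with many counts pass more easily, and among the 10361 genes averaging 300 normalized counts or more 15.3% were lower and 20.1% higher, and all 13 are among the 29 members above that level. Those lower were *Fh1*, *Pdp2*, *Idh1*, *Ogdh*, *Pdp1*, *Pcx*, *Dlst*, *Dld* and *Pdhb*. Those higher were *Suclg2*, *Pdk1*, *Mpc2* and *Idh3b*. With a fold change over 1.5 required as well, 2 were lower (*Fh1* and *Pdp2*, where 1.97% of all genes were) and 0 were higher (3.24% of all genes). Another 4 members had an unadjusted p under 0.05 only. The median log2 fold change of the members was −0.036, against 0.056 for all genes. With counts scaled by library totals alone, 10 members were higher and 5 lower (of all genes 18.8% higher and 3.31% lower), and this scaling moved the median of all genes with a mean of at least 100 counts from 0.035 to 0.17.

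**Figure D3:**
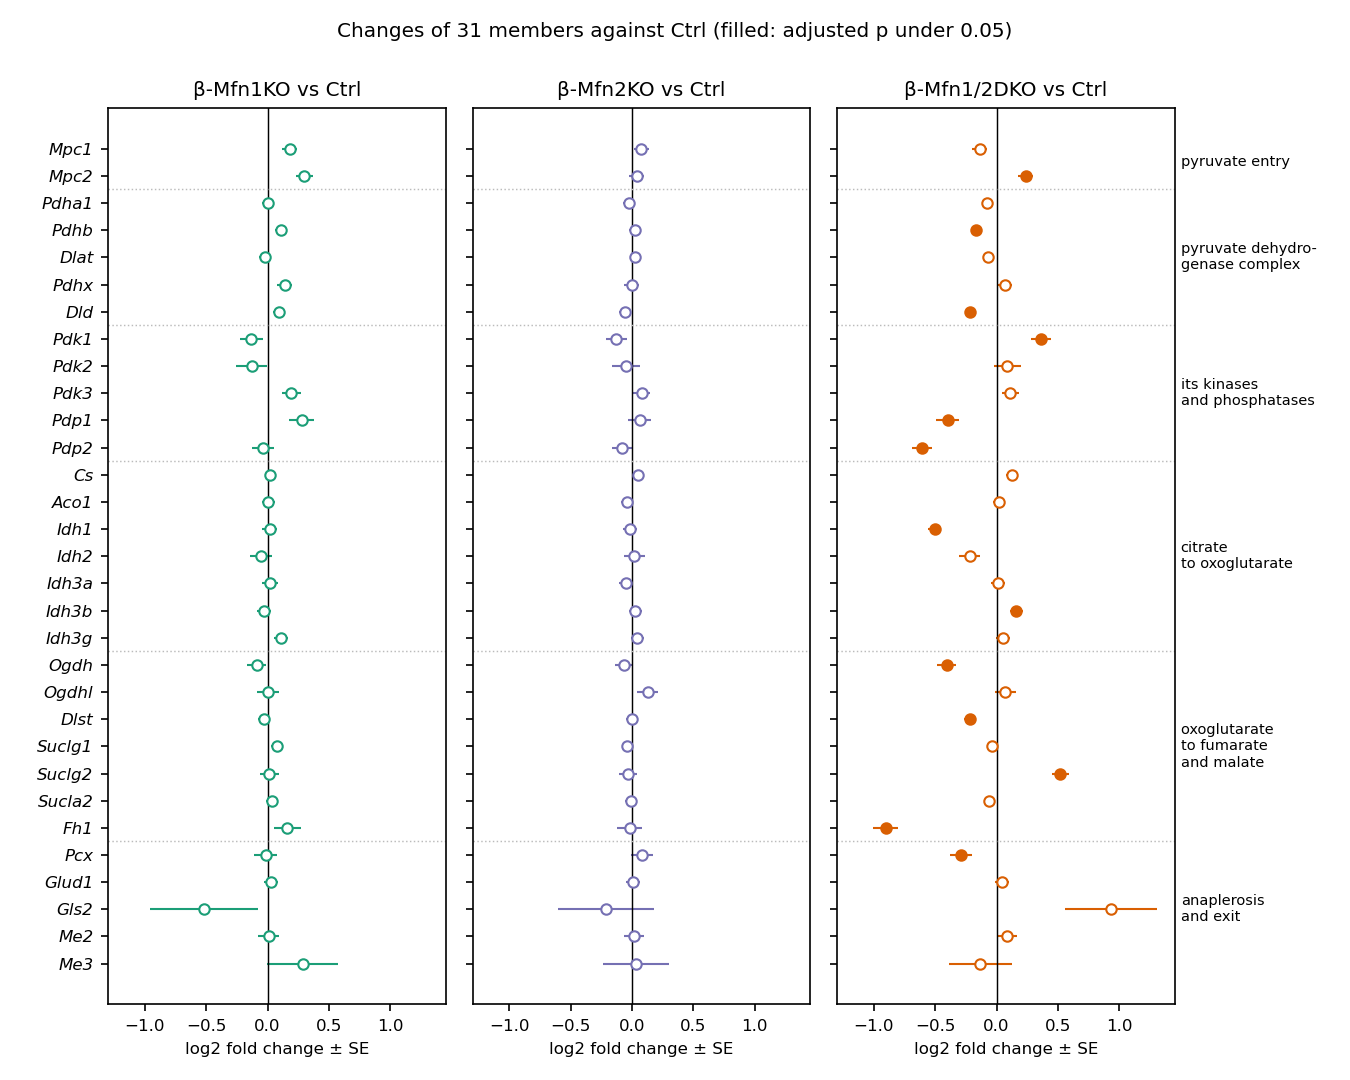
Log2 fold changes of the 31 members against Ctrl in β-Mfn1KO, β-Mfn2KO and β-Mfn1/2DKO, from edgeR's fit to all 20 libraries. Bars are standard errors, filled points have an adjusted p under 0.05, and dotted lines part the steps of the pathway. Filled points appear in β-Mfn1/2DKO alone, from −0.90 for *Fh1* to 0.52 for *Suclg2*.

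The bases upstream of the 4 members with the largest log2 fold changes among the 13 are shown here, since these genes part β-Mfn1/2DKO from Ctrl most clearly. Each run holds the 250 bases before the transcription start in RefSeq's GRCm38.p6 annotation, 5′ to 3′ on the strand of the gene, and capitals mark matches to any of 5 short motifs searched on both strands. *Fh1* lies at chr1:175625636-175625885 (minus strand), *Pdp2* at chr8:104591222-104591471 (plus), *Idh1* at chr1:65186480-65186729 (minus) and *Suclg2* at chr6:95718847-95719096 (minus).
Fh1: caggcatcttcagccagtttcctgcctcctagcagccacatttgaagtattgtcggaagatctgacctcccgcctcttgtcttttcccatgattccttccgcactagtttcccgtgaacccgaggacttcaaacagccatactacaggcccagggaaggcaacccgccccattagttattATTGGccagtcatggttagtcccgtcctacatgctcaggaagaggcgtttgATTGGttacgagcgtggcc
Pdp2: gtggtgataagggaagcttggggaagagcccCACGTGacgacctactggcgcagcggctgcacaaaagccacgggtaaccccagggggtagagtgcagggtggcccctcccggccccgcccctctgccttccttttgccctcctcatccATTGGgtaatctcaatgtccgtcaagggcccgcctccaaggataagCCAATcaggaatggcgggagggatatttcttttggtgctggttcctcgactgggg
Idh1: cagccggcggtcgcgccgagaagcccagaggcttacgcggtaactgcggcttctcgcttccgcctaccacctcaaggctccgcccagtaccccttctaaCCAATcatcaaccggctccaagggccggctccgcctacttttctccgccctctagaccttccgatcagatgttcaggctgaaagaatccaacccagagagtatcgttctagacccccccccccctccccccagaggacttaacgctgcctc
Suclg2: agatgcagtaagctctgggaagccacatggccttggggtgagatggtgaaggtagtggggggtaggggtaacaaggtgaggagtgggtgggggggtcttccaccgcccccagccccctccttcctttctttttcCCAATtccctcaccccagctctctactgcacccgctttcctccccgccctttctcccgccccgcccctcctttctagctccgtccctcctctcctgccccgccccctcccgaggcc

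The capitals in these runs are CCAAT boxes (CCAAT, or ATTGG on the other strand) in each of the 4, and an E-box (CACGTG) in *Pdp2* at bases 219 to 214 before the start. *Fh1* has 2 CCAAT matches on the opposite strand, at 70 to 66 and 19 to 15 bases before the start. *Pdp2* has 2 as well, at 101 to 97 and 55 to 51. *Idh1* has 1 at 151 to 147, and *Suclg2* has 1 at 116 to 112. The matches stand in members that were lower and in the 1 that was higher. CCAAT was in 33.85% of the 32851 promoters of the table and in 18 of the 37 promoters of the 27 members it lists. CACGTG was in 6.02% of all promoters and in 6 of these 37. The core of the NRF1 site (GCATGCGC) was in 2.26% and in 3 of 37. The core of the amino acid response element (TGATGNAA) was in 3.45% and in 1 of 37, and the estrogen-related receptor motif (TCAAGGTCA) was in 0.39% and in 0 of 37.

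The carrier that brings pyruvate in is built of *Mpc1* and *Mpc2* subunits, and in β-Mfn1/2DKO *Mpc2* was higher than in Ctrl while *Mpc1* did not pass. *Mpc2* (ENSMUSG00000026568, chromosome 1, 165460637–165481214, GRCm38 here and below) was at 2046, 2233, 2031, 2127 and 1737 normalized counts in β-Mfn1/2DKO and ran in Ctrl from 1607 to 1834, with a median of 1723. It was at 2211, 2288, 1808 and 2189.9 in β-Mfn1KO and 1789, 1765, 1650.2, 1886 and 1759 in β-Mfn2KO. β-Mfn1/2DKO replicate 5 fell within the Ctrl range and the other 4 lay above it. On the log2 scale its change in β-Mfn1/2DKO was 0.24 (SE 0.063, adjusted p = 0.0107). *Mpc1* (ENSMUSG00000023861, chromosome 17, 8282904–8297661) was at 1413, 1524, 1498, 1484 and 1238 in β-Mfn1/2DKO, and its Ctrl values ran from 1506 to 1645, with a median of 1578. It was at 1795, 1696, 1706 and 1952 in β-Mfn1KO, above every Ctrl library, and at 1492, 1745, 1688, 1703 and 1678 in β-Mfn2KO. Of all genes 0.503% were higher in β-Mfn1KO than in Ctrl without overlap, and *Mpc1* was the 1 member among them. Against Ctrl its log2 change in β-Mfn1/2DKO was −0.14 (SE 0.057, adjusted p = 0.11), and with DESeq2 it was −0.17, adjusted p = 0.0198. Up to 9.72% of the 75-base stretches of *Mpc1* also occur in the pseudogene *Mpc1-ps*, which had few counts.

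Within the pyruvate dehydrogenase complex 2 of 5 genes were lower in β-Mfn1/2DKO and 0 were higher. *Dld* (ENSMUSG00000020664, chromosome 12, 31331277–31351453) encodes the dihydrolipoamide dehydrogenase that this complex shares with the oxoglutarate dehydrogenase complex. It was at 4005, 4414, 4182, 4039 and 3912 in β-Mfn1/2DKO and ran in Ctrl from 4386 to 5051, with a median of 4752, so that 1 of the 5 libraries reached the Ctrl range. In β-Mfn1KO it was at 5348, 5122, 4828 and 5023 and in β-Mfn2KO at 4748, 4588, 4366, 4674 and 4462. Its log2 change in β-Mfn1/2DKO was −0.21 (SE 0.047, adjusted p = 0.00284). *Pdhb* (ENSMUSG00000021748, chromosome 14, 8165996–8173025), the β-subunit of the decarboxylase, was at 3871, 4221, 3988, 3877 and 3787 in β-Mfn1/2DKO, and Ctrl ran from 4166 to 4823, with a median of 4366. It was at 4743, 4685, 4547 and 5120.0 in β-Mfn1KO and 4435, 4519, 4474, 4628 and 4392 in β-Mfn2KO. Here too 1 β-Mfn1/2DKO library overlapped with Ctrl, and the change was −0.17 (SE 0.046, adjusted p = 0.0141). The α-subunit *Pdha1* had −0.075 (adjusted p = 0.292), the acetyltransferase *Dlat* −0.070 (adjusted p = 0.322) and the binding protein *Pdhx* 0.071 (adjusted p = 0.478). DESeq2 also passed *Pdha1* (−0.11, adjusted p = 0.0125) and *Dlat* (−0.10, adjusted p = 0.026), so that it called 4 of the 5 lower. *Pdha1* is uncertain, since *Map3k15* overlaps its exons on the opposite strand with 208% of its counts. Of the 75-base stretches of *Pdhb* 6.86% also occur in the pseudogene *Gm6123*, which had few counts (a mean of 4.05).

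Of the 5 regulators of this complex 3 changed. Both phosphatases, which switch it on, were lower in β-Mfn1/2DKO, and *Pdk1*, 1 of the 3 kinases that switch it off, was higher. *Pdp2* (ENSMUSG00000048371, chromosome 8, 104591451–104599026) was at 512, 514, 478, 455 and 442 in β-Mfn1/2DKO, and Ctrl ran from 663 to 891, with a median of 702, without overlap. It was at 653, 635, 807 and 762 in β-Mfn1KO and 705, 746, 692, 682 and 647 in β-Mfn2KO. Its mean fell from 734 ± 87.6 (SD, n = 6) in Ctrl to 480.0 ± 32.4 (SD, n = 5) in β-Mfn1/2DKO, a change of −0.61 (SE 0.081, adjusted p = 1.24e-05) on the log2 scale. *Pdp1* (ENSMUSG00000049225, chromosome 4, 11958184–11966452) was at 303, 351, 321, 322 and 309 in β-Mfn1/2DKO and ran in Ctrl from 336 to 536, with a median of 413, where 1 Ctrl library, replicate 6, lay among the β-Mfn1/2DKO values. In β-Mfn1KO it was at 483, 569, 509 and 491, and in β-Mfn2KO at 454, 487, 425, 448 and 396. Its log2 change in β-Mfn1/2DKO was −0.40 (SE 0.093, adjusted p = 0.00419). *Pdk1* (ENSMUSG00000006494, chromosome 2, 71873224–71903858) was at 1918, 1538, 1954, 1723 and 1956 in β-Mfn1/2DKO against a Ctrl range from 1285 to 1538, with a median of 1432. It was at 1270.1, 1056, 1321 and 1516 in β-Mfn1KO and 1261, 1126, 1454, 1369 and 1261 in β-Mfn2KO. Only replicate 2 of β-Mfn1/2DKO touched the Ctrl range, at the level of the highest Ctrl library, and the change was 0.36 (SE 0.083, adjusted p = 0.00341). *Pdk2* (0.088, adjusted p = 0.663) and *Pdk3* (0.11, adjusted p = 0.316) did not pass, and *Pdk2* had the wider spread, from 605 to 1169 in Ctrl.

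Between citrate and oxoglutarate 1 of 7 members was lower, the cytosolic enzyme *Idh1*, and 1 was higher, *Idh3b*. *Idh1* (ENSMUSG00000025950, chromosome 1, 65158616–65186500), which makes NADPH outside mitochondria, was at 1975, 1955, 1847, 2123 and 1997 in β-Mfn1/2DKO, and Ctrl ran from 2538 to 3192, with a median of 2775. It was at 2811, 2824, 2679.7 and 3038 in β-Mfn1KO and 2982, 2835, 2633, 2698 and 2739 in β-Mfn2KO. Every β-Mfn1/2DKO library lay below every library of the other 3 groups, and its log2 change was −0.50 (SE 0.054, adjusted p = 9.18e-07). Its mitochondrial counterpart *Idh2* was at 6385, 7213, 6776, 5638 and 5701 in β-Mfn1/2DKO with a change of −0.22 (adjusted p = 0.0784), or −0.25, adjusted p = 0.0156 with DESeq2, lowest in replicates 4 and 5. In the NAD-dependent complex of mitochondria, *Idh3b* (ENSMUSG00000027406, chromosome 2, 130279309–130284547) was at 3540.0, 3641, 3394, 3655 and 3244 in β-Mfn1/2DKO, and Ctrl ran from 2919 to 3385, with a median of 3065. It was at 3059, 3165, 3132 and 2886 in β-Mfn1KO and 2852, 3116, 3198, 3338 and 3427 in β-Mfn2KO. β-Mfn1/2DKO replicate 5 fell within the Ctrl range and the other 4 lay above it, and the change in β-Mfn1/2DKO was 0.16 (SE 0.053, adjusted p = 0.0409). *Idh3b* is uncertain, as *Nop56* overlaps its exons on the opposite strand with 83.3% of its counts. The log2 change of *Nop56* itself was 0.023 (SE 0.062, adjusted p = 0.852). The catalytic subunit *Idh3a* had 0.012 (adjusted p = 0.926) and *Idh3g* 0.051 (adjusted p = 0.619). Citrate synthase (*Cs*) had 0.12 (adjusted p = 0.0528), and the cytosolic aconitase *Aco1*, which also binds iron-responsive mRNAs, had 0.018 (adjusted p = 0.842).

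The steps from oxoglutarate to malate held the largest fall and the largest rise among the members that passed. *Fh1* (ENSMUSG00000026526, chromosome 1, 175600374–175625635), fumarase, which turns fumarate into malate, was at 4936, 4874, 4703, 3979.9 and 3787 normalized counts in β-Mfn1/2DKO, and Ctrl ran from 6525 to 9584, with a median of 8555. It was at 8835, 10440.2, 8888 and 9139 in β-Mfn1KO and 9329, 9285, 7298, 8006 and 7223 in β-Mfn2KO. No β-Mfn1/2DKO library reached the lowest library of another group. The mean was 8339 ± 1269 (SD, n = 6) in Ctrl and 4456 ± 534 (SD, n = 5) in β-Mfn1/2DKO, with a log2 change of −0.90 (SE 0.10, adjusted p = 2.04e-06), or 0.534 of the Ctrl level. Within β-Mfn1/2DKO, *Fh1* was lower in replicates 4 and 5, those with high acinar markers, than in replicates 1 to 3, and without them the change was −0.76, adjusted p = 4.87e-05. *Suclg2* (ENSMUSG00000061838, chromosome 6, 95473009–95718800), the β-subunit of the succinyl-CoA ligase that forms GTP, moved up. It was at 3191, 3712, 3604, 3402 and 2769 in β-Mfn1/2DKO, and Ctrl ran from 2055 to 2522, with a median of 2377. In β-Mfn1KO it was at 2535, 2351, 2253 and 2268, and in β-Mfn2KO at 2096, 2055, 2490.1, 2295 and 2429. Each β-Mfn1/2DKO library was above every other library of the series, and its log2 change was 0.52 (SE 0.072, adjusted p = 2.17e-05), or 1.43 times Ctrl. Of its 75-base stretches 11.6% also occur in the pseudogene *Gm15163*, which had few counts.

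The other ligase subunits did not pass. *Sucla2*, the β-subunit of the ATP-forming ligase, had −0.059 (adjusted p = 0.463) in β-Mfn1/2DKO, and *Suclg1*, the α-subunit of both ligases, had −0.036 (adjusted p = 0.653). The oxoglutarate dehydrogenase complex was lower in 2 of its own genes besides *Dld*. *Ogdh* (ENSMUSG00000020456, chromosome 11, 6291633–6356642), its decarboxylase, was at 8524, 8827, 8874, 9195 and 8384 in β-Mfn1/2DKO, and Ctrl ran from 10199 to 12562, with a median of 11923. It was at 10493, 9148, 11906 and 12136 in β-Mfn1KO and 11662, 12464, 11441, 10206 and 9786 in β-Mfn2KO. β-Mfn1/2DKO and Ctrl did not overlap, while β-Mfn1KO replicate 2, at 9148, lay below the highest β-Mfn1/2DKO library, and the change in β-Mfn1/2DKO was −0.41 (SE 0.075, adjusted p = 0.000488). *Dlst* (ENSMUSG00000004789, chromosome 12, 85110833–85134845), the succinyltransferase, was at 3961, 4074, 3901, 3863 and 3917 in β-Mfn1/2DKO, and Ctrl ran from 4293 to 4850.2, with a median of 4611. It was at 4447, 4113, 4594 and 4787 in β-Mfn1KO and 4875, 4762, 4348, 4572 and 4359 in β-Mfn2KO. β-Mfn1/2DKO lay below all Ctrl libraries by a small step, with −0.22 (SE 0.048, adjusted p = 0.00256). *Ogdhl*, a paralog of *Ogdh*, had 0.071 (adjusted p = 0.653).

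Among the enzymes that add or draw carbon, *Pcx* was lower in β-Mfn1/2DKO. *Pcx* (ENSMUSG00000024892, chromosome 19, 4510472–4621752), which makes oxaloacetate from pyruvate, was at 7220.1, 6749.8, 7118, 6556 and 5185 in β-Mfn1/2DKO, and Ctrl ran from 7144 to 9151, with a median of 8038. It was at 7302, 7281, 8325 and 8932 in β-Mfn1KO and 8847, 9569, 8499, 8126 and 7403 in β-Mfn2KO. The highest β-Mfn1/2DKO library overlapped with the 2 lowest Ctrl libraries, and its log2 change was −0.29 (SE 0.088, adjusted p = 0.0246). Replicate 5, with the highest acinar markers, was lowest, and without replicates 4 and 5 the change was −0.17, adjusted p = 0.259. *Glud1*, glutamate dehydrogenase, had 0.041 (adjusted p = 0.686), but −0.28, adjusted p = 0.037, with the gene-wise normalization factors of the authors. The malic enzymes *Me2* and *Me3* had 0.089 (adjusted p = 0.529) and −0.13 (adjusted p = 0.776). *Gls2* was at 90.1, 83.0, 91.0, 207 and 401 in β-Mfn1/2DKO and ran in Ctrl from 60.8 to 128, with a median of 94.6. It was high in the 2 β-Mfn1/2DKO libraries with high acinar markers and within the Ctrl range in the other 3, and its change was 0.93 (SE 0.37, adjusted p = 0.0987), with −0.026, adjusted p = 1 without those 2 libraries and 0.24, adjusted p = 0.632 with the acinar score as a covariate. *Gls2* is uncertain, because *Spryd4* overlaps its exons on the opposite strand with 362% of its counts.

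**Figure D4:**
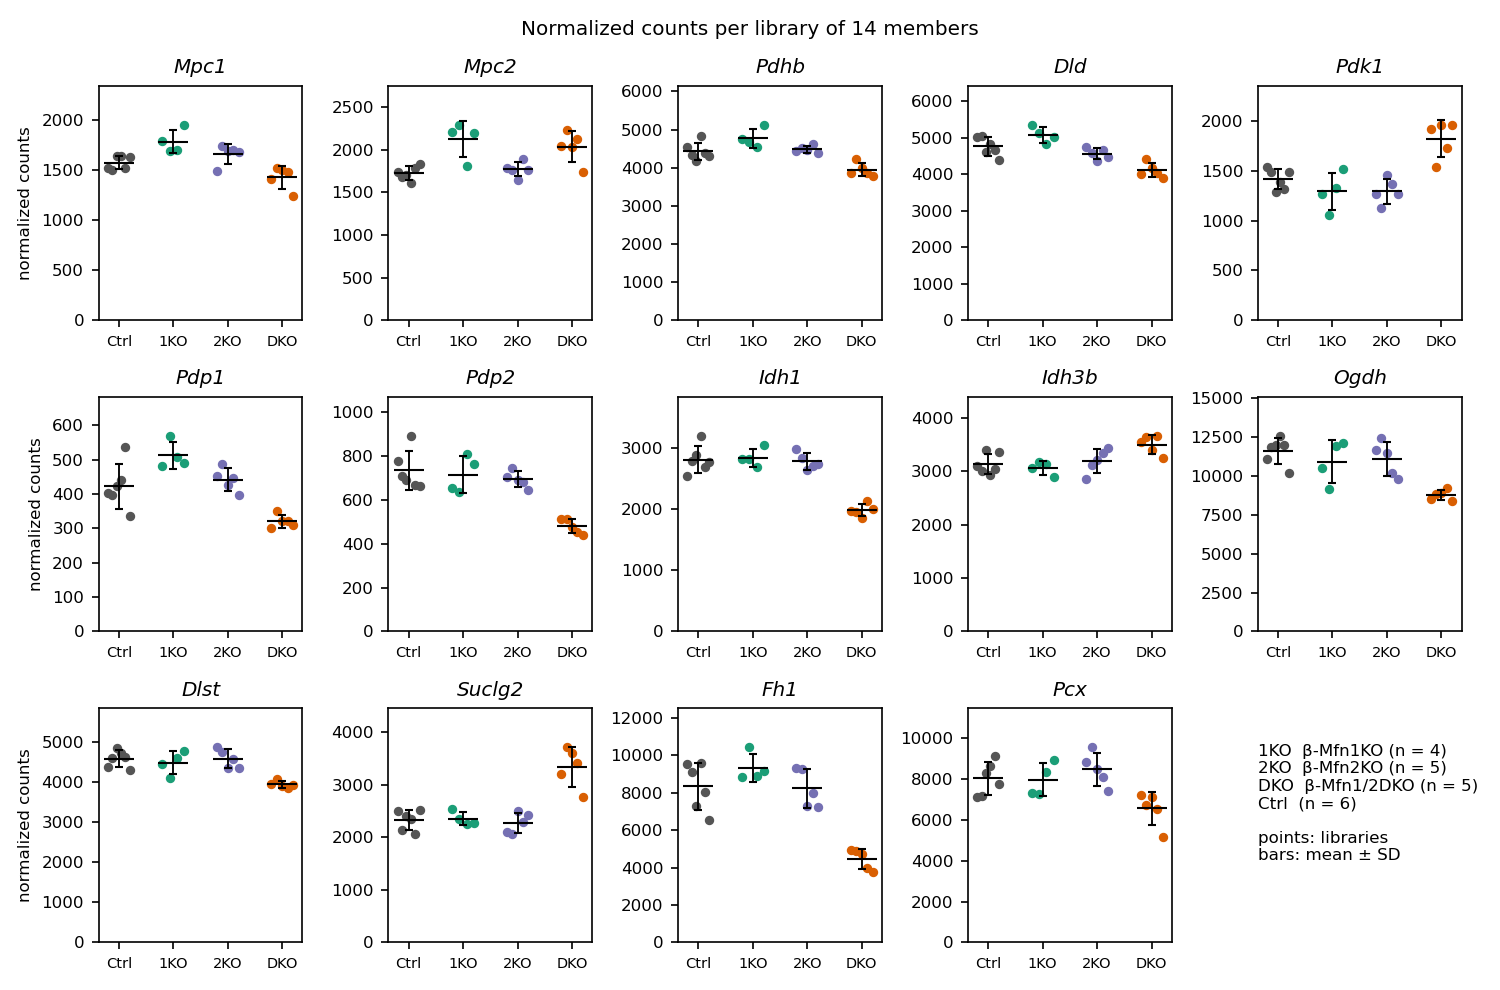
Normalized counts of 14 members in each library, on axes that start at 0. Points are the 6 Ctrl, 4 β-Mfn1KO, 5 β-Mfn2KO and 5 β-Mfn1/2DKO libraries, and bars are mean ± SD. *Fh1*, *Pdp2*, *Idh1*, *Ogdh* and *Dlst* lie below Ctrl and *Suclg2* above it in β-Mfn1/2DKO without overlap, while single-knockout and Ctrl points mingle in most panels.

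Without overlap between all β-Mfn1/2DKO and all Ctrl libraries, 5 members were lower (*Pdp2*, *Idh1*, *Ogdh*, *Dlst* and *Fh1*) and 1 was higher (*Suclg2*). Of all genes 4.04% were lower and 6.56% higher in this way, and among genes averaging 300 or more 9.37% and 12.7%.

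Loss of *Mfn1* was read in islets with *Mfn2* (β-Mfn1KO against Ctrl) and in islets without it (β-Mfn1/2DKO against β-Mfn2KO), and the difference of the 2 changes was tested in the same fit. It passed for 9 of the 31 members, 2 higher (6.45%, against 2.88% of all genes) and 7 lower (22.6%, against 3.03%). Genes with many counts pass more easily. In a fit to the 15267 genes kept by edgeR's filterByExpr, which drops genes with few counts, 7.15% were higher and 8.23% lower. *Fh1* changed by −0.88 (SE 0.11, adjusted p = 6.99e-06) without *Mfn2* and by 0.16 (adjusted p = 0.737) with it, a difference of −1.05 (SE 0.15, adjusted p = 0.000281). For *Pdp1* the difference was −0.74 (SE 0.14, adjusted p = 0.00238), for *Idh1* −0.50 (SE 0.080, adjusted p = 0.000639) and for *Pdp2* −0.49 (SE 0.12, adjusted p = 0.016). *Mpc1* belongs here through both of its changes, −0.22 (adjusted p = 0.0167) without *Mfn2* and 0.18 (adjusted p = 0.571) with it, and their difference was −0.40 (SE 0.086, adjusted p = 0.00662). *Pdhb* (−0.29, adjusted p = 0.0109) and *Dld* (−0.25, adjusted p = 0.0413) had smaller differences, and that of *Dld* did not pass with the replicate number as a block (−0.21, adjusted p = 0.1) or with the acinar score (−0.23, adjusted p = 0.0809). The differences above 0 were those of *Pdk1* (0.62, SE 0.13, adjusted p = 0.00407) and *Suclg2* (0.54, SE 0.11, adjusted p = 0.0042). For *Ogdh* (−0.25, adjusted p = 0.217), *Dlst* (−0.19, adjusted p = 0.141), *Pcx* (−0.36, adjusted p = 0.121), *Idh3b* (0.16, adjusted p = 0.273) and *Mpc2* (−0.10, adjusted p = 0.671) the difference did not pass. In a fit with a term for depth class 7 of the 9 passed, and *Dld* (−0.25, adjusted p = 0.126) and *Pdp2* (−0.43, adjusted p = 0.1) did not. DESeq2 passed 12 members (of all genes 4.6% higher and 5.5% lower).

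Set against β-Mfn2KO, from which they differ by the loss of *Mfn1*, the β-Mfn1/2DKO islets were lower for 10 members (5.90% of all genes were) and higher for 3 (7.09%). With a fold change over 1.5 as well, 1 was lower (*Fh1*, 1.79% of all genes) and 0 were higher (2.05%). Without overlap 9 were lower (5.26%) and 2 higher (6.56%). The β-Mfn1/2DKO libraries are the same as in the comparison with Ctrl, so the 2 comparisons are not independent. *Fh1* had a log2 change of −0.88 (SE 0.11, adjusted p = 6.99e-06), *Pdp2* of −0.53 (SE 0.083, adjusted p = 0.000133), *Idh1* of −0.49 (SE 0.056, adjusted p = 3.71e-06) and *Pdp1* of −0.46 (SE 0.10, adjusted p = 0.00206). *Pcx* (−0.37, adjusted p = 0.00806), *Ogdh* (−0.34, adjusted p = 0.00434), *Dlst* (−0.22, adjusted p = 0.00458), *Mpc1* (−0.22, adjusted p = 0.0167), *Pdhb* (−0.19, adjusted p = 0.0104) and *Dld* (−0.15, adjusted p = 0.0437) were lower as well. *Suclg2* had 0.55 (SE 0.075, adjusted p = 2.98e-05), *Pdk1* 0.49 (SE 0.086, adjusted p = 0.000429) and *Mpc2* 0.20 (SE 0.065, adjusted p = 0.045). In β-Mfn2KO 2 libraries held more than 40 M counts, at most 59.5 M against at least 65.5 M in β-Mfn1/2DKO. With the libraries above 40 M counts alone (5 against 2), *Fh1* (−0.72, adjusted p = 0.00975), *Idh1* (−0.41, adjusted p = 0.00598) and *Pdp2* (−0.42, adjusted p = 0.0306) were lower, and *Pdk1* (0.51, adjusted p = 0.0195) and *Suclg2* (0.55, adjusted p = 0.0263) were higher. The other members did not pass there.

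Paired members can also be read as a ratio of counts per kb within each library, which does not depend on the scaling between libraries. These ratios were described and not tested. Of 14 pairs, 4 did not overlap between β-Mfn1/2DKO and Ctrl and 6 did not overlap between β-Mfn1/2DKO and β-Mfn2KO. *Suclg2* to *Sucla2*, the GTP-forming over the ATP-forming ligase subunit, stood at 0.389 to 0.492 in Ctrl, 0.389 to 0.506 in β-Mfn1KO, 0.392 to 0.509 in β-Mfn2KO and 0.590 to 0.712 in β-Mfn1/2DKO. Thus every β-Mfn1/2DKO library was above all others. *Ogdhl* to *Ogdh* stood at 0.619 to 0.840 in Ctrl, 0.706 to 0.864 in β-Mfn1KO, 0.714 to 0.927 in β-Mfn2KO and 0.846 to 1.13 in β-Mfn1/2DKO. The carrier subunits, *Mpc2* to *Mpc1*, stood at 0.913 to 1.10 in Ctrl and 0.914 to 1.12 in β-Mfn2KO, against 1.27 to 1.37 in β-Mfn1/2DKO. β-Mfn1KO reached 0.990 to 1.26, just under the β-Mfn1/2DKO range. *Idh3b* to *Idh3a* was at 1.75 to 1.99 in Ctrl, 1.66 to 1.92 in β-Mfn1KO, 1.76 to 2.13 in β-Mfn2KO and 2.03 to 2.20 in β-Mfn1/2DKO. For *Ogdhl* to *Ogdh* single-knockout libraries reached into the β-Mfn1/2DKO range, and for *Idh3b* to *Idh3a* β-Mfn2KO libraries did.

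Ratios of the routes for pyruvate overlapped between β-Mfn1/2DKO and Ctrl. *Pcx* to *Pdha1*, carboxylation over decarboxylation, was at 0.950 to 1.26 in Ctrl, 1.07 to 1.31 in β-Mfn2KO and 0.788 to 1.06 in β-Mfn1/2DKO, and in β-Mfn1/2DKO it lay below β-Mfn2KO. *Pdk1* to *Pdk2* was at 0.486 to 1.10 in Ctrl, 0.575 to 0.740 in β-Mfn2KO and 0.762 to 0.972 in β-Mfn1/2DKO, above β-Mfn2KO. *Pdp1* to *Pdp2* was at 0.672 to 1.09 in Ctrl and 0.801 to 0.958 in β-Mfn1/2DKO, so the β-Mfn1/2DKO ratios lay within the Ctrl range. *Idh2* to *Idh3a* was at 3.15 to 4.63 in Ctrl and 3.03 to 3.81 in β-Mfn1/2DKO.

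**Figure D5:**
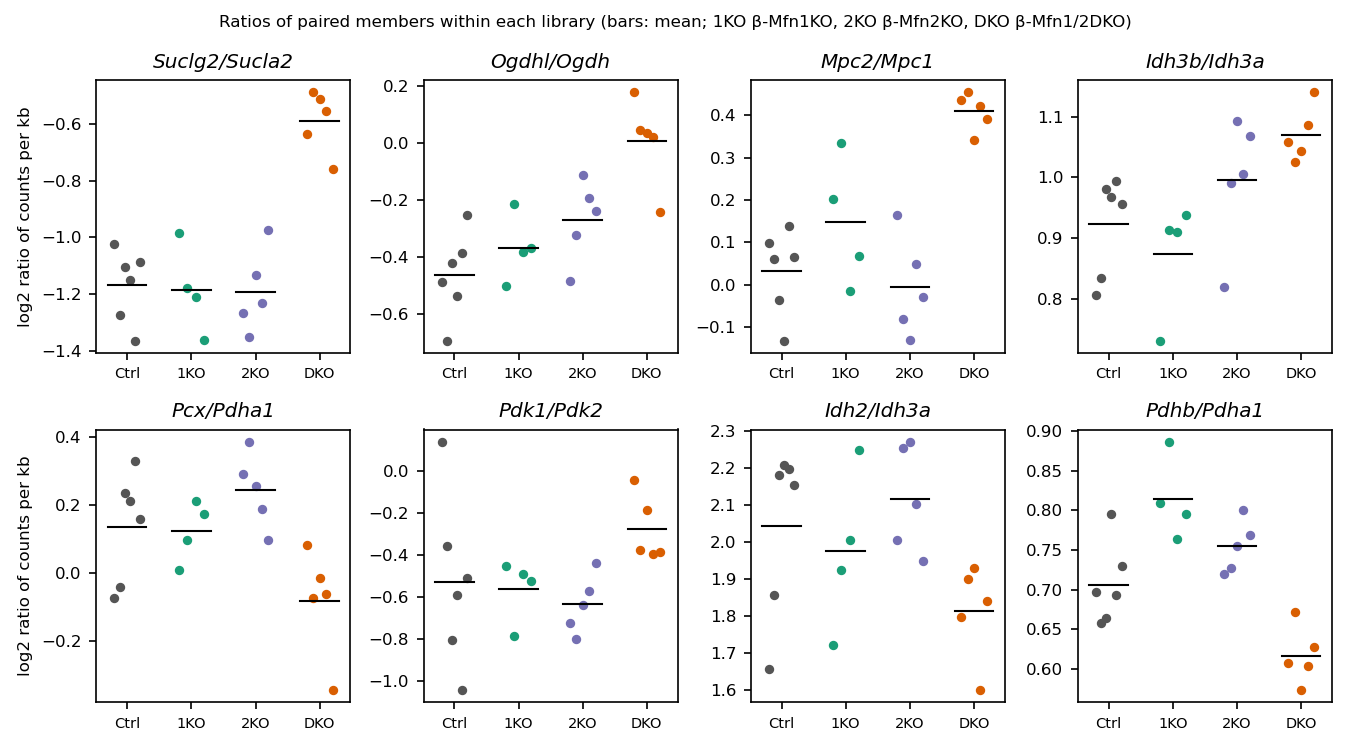
Log2 ratios of counts per kb for 8 pairs of members within each library, with points for libraries, bars for group means and a separate scale for each pair. In β-Mfn1/2DKO the ratios *Suclg2*/*Sucla2*, *Ogdhl*/*Ogdh*, *Mpc2*/*Mpc1* and *Idh3b*/*Idh3a* lie above all Ctrl libraries.

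Of 33 other genes around the cycle, 4 were higher (12.1%) and 2 lower (6.06%) in β-Mfn1/2DKO than in Ctrl. These shares are near the 9.59% and 6.86% of all genes. They are below the 20.1% and 15.3% of genes averaging 300 normalized counts or more. In either single knockout 0 passed. *Gpt2*, the mitochondrial alanine transaminase that joins pyruvate to glutamate, rose from 1294 ± 169.7 normalized counts in Ctrl to 4751 ± 676 in β-Mfn1/2DKO (mean ± SD), with 1.88 (SE 0.10, adjusted p = 5.14e-11). *Got1*, the cytosolic aspartate transaminase, rose from 1680.2 ± 317 to 2549 ± 354, with 0.60 (SE 0.12, adjusted p = 0.000904). *Pdk4*, a further pyruvate dehydrogenase kinase, had 0.45 (SE 0.15, adjusted p = 0.0414). *Slc16a1*, a plasma membrane carrier of lactate and pyruvate that β-cells normally keep low, had 1.05 (SE 0.33, adjusted p = 0.0315) at 46.4 ± 13.7 in Ctrl and 96.5 ± 44.3 in β-Mfn1/2DKO. Those lower were *Mdh1*, the cytosolic malate dehydrogenase, with −0.42 (SE 0.064, adjusted p = 5.93e-05), and *Sdhc*, a subunit of succinate dehydrogenase, with −0.32 (SE 0.054, adjusted p = 0.000223). The mitochondrial malate dehydrogenase *Mdh2* had 0.023 (SE 0.050, adjusted p = 0.808). The difference in the effect of *Mfn1* loss passed for *Gpt2* (1.83, SE 0.16, adjusted p = 1.33e-06), *Mdh1* (−0.45, SE 0.095, adjusted p = 0.00587) and *Sdhc* (−0.41, SE 0.080, adjusted p = 0.00323).

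The libraries named above touch the counts of members as follows. Without β-Mfn1/2DKO replicates 4 and 5, 5 members were higher and 6 lower in β-Mfn1/2DKO than in Ctrl (of all genes 7.36% higher and 3.89% lower). *Idh3g* was added to those higher, and *Pcx*, *Pdhb* (−0.11, adjusted p = 0.186) and *Dld* (−0.16, adjusted p = 0.0596) were no longer among those lower. With the acinar score of each library as a covariate, 4 were higher and 8 lower (of all genes 8.23% higher and 6.36% lower), without *Pcx* (−0.25, adjusted p = 0.0569). With depth class (above or below 40 M counts) as a covariate, which rests on the 2 deep β-Mfn2KO libraries, 0 were higher and 2 lower (of all genes 1.48% higher and 1.06% lower), *Fh1* (−0.72, adjusted p = 0.0305) and *Idh1* (−0.45, adjusted p = 0.013), while *Pdp2* had −0.51, adjusted p = 0.0669 and *Suclg2* 0.43, adjusted p = 0.0939. The other 9 of the 13 had an adjusted p of 0.251 or more in that fit. Of these, *Dld* (−0.21), *Pdhb* (−0.18), *Pdk1* (0.32), *Pdp1* (−0.29), *Dlst* (−0.15) and *Mpc2* (0.17) had log2 changes within 1.5 times of those without the covariate. *Ogdh* (−0.16), *Pcx* (−0.082) and *Idh3b* (0.013) moved by more.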

How the data were processed

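RNA of cultured islets was sequenced, and per the submitters' processing notes the authors trimmed reads with cutadapt 2.3, checked them with FastQC 0.11.8, aligned them to GRCm38 with STAR 2.6.1b and quantified genes with RSEM 1.3.1. The deposited table holds estimated counts as whole numbers for 28632 genes, with genes at 0 in all samples removed by the authors. The other deposited table, a signal scaled by the authors with DESeq2 1.26.0 factors, served only to recover these factors. Whether counting used strand is not given in the sources used here.

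Counts were tested with edgeR 4.0.16 (TMM scaling, quasi-likelihood F test, no covariates, R 4.3.3) in one fit of all 20 libraries, with Benjamini-Hochberg adjustment over all genes and no further filter. A member passed at an adjusted p under 0.05. Normalized counts are TMM-scaled to the mean library size. Per-length levels use the longest principal transcript of GENCODE M21. DESeq2 1.42.0, other scalings and filters, covariates and the removal of libraries were alternatives. The scripts were tested on simulated data. Depth ran from 12.4 to 122.9 M counts per library, which limits the precision of low genes such as *Me3* and *Gls2* most.

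The members and gene lists were chosen with earlier results of these data known. Values in every library are given for 14 members. These are the members past an adjusted p of 0.05 in β-Mfn1/2DKO against Ctrl, in a single knockout or in the difference of the *Mfn1* effects. *Idh2* and *Gls2* were added after their values were seen. Same-numbered libraries of Ctrl and β-Mfn1KO deviated together (4 correlations, from 0.112 to 0.493). Each of these pairs is also of one sex, and pairs of one sex with different numbers correlated from 0.042 to 0.381. A pairing by number therefore cannot be told apart from sex here, and the labels give no pairing. With the replicate number as a block, 0 members passed in β-Mfn1KO against Ctrl as well. The RefSeq promoter table matched 27 members, and protein sequences were not used here. Of the list of other genes around the cycle, 7 are given with values and the rest is not reported here.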

Additional observations from a re-analysis of the deposited data

Results flagged for a closer look

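In 2 of the 124 groups of 4 to 6 libraries tested, 1 library lay far from the rest of its group, and chance flags about 1 in 20 groups. *Mpc1* was at 1492.336 normalized counts in β-Mfn2KO replicate 1, while the other 4 libraries of that group ran from 1678 to 1745. *Ogdhl* was at 5924.991 in β-Mfn1/2DKO replicate 5, the library with the highest acinar markers, while the other 4 ran from 7610 to 8064.

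For 9 members the effect of losing *Mfn1* differed between islets without *Mfn2* and islets with it, by the edgeR test of that difference, given here on the log2 scale. The difference was −1.0454 for *Fh1* (adjusted p = 0.000281), −0.7367 for *Pdp1* (adjusted p = 0.00238), −0.5044 for *Idh1* (adjusted p = 0.000639) and −0.493 for *Pdp2* (adjusted p = 0.0160). It was −0.3963 for *Mpc1* (adjusted p = 0.00662), −0.2938 for *Pdhb* (adjusted p = 0.0109) and −0.2453 for *Dld* (adjusted p = 0.0413). It was 0.6221 for *Pdk1* (adjusted p = 0.00407) and 0.5369 for *Suclg2* (adjusted p = 0.0042). The β-Mfn1/2DKO libraries were the deepest of the series. With depth class as a covariate the difference passed for 7 of the 9, from an adjusted p of 0.00354 for *Fh1* to 0.042 for *Pdhb*, and not for *Dld* (adjusted p = 0.126) or *Pdp2* (adjusted p = 0.100).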

How the results depend on the processing

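Of 462 values of the 14 members under alternatives, 423 kept their direction and their side of the threshold. Another 35 lost their call, 3 gained one (*Mpc1*) and 1 reversed. The reversal was *Mpc1* in β-Mfn1/2DKO against Ctrl, at 0.0011 with total-count scaling. Each member has 33 of these values, and 20 of the 33 come from fits that omit a single library and share the rest. For *Mpc1*, 29 values count as kept because it did not pass in either fit. With a fold change over 1.5 required, 0 members were higher and 2 lower in β-Mfn1/2DKO against Ctrl, and 0 and 1 against β-Mfn2KO. Total-count scaling gave 10 and 5 against Ctrl (of all genes 18.8% higher and 3.31% lower) and 6 and 4 against β-Mfn2KO (13.4% and 3.09%). It passed 5 differences of the *Mfn1* effects (of all genes 6.48% higher and 1.53% lower). With depth class as a covariate 0 were higher and 2 lower against Ctrl (of all genes 1.48% and 1.06%). Against β-Mfn2KO 2 were higher (*Pdk1* and *Suclg2*) and 3 lower (3.1% and 2.78%). Without β-Mfn1/2DKO replicates 4 and 5, 6 were lower against β-Mfn2KO (3.08% of all genes), and with libraries above 40 M counts only 3 were (2.04%). In β-Mfn1KO DESeq2 gave 1 higher member, where 11 of all 28632 genes were higher. Omitting single libraries (leave-one-out) gave 7 to 10 lower and 3 to 6 higher against Ctrl (of all genes 4.74 to 7.33% and 8.08 to 11.5%). Against β-Mfn2KO it gave 8 to 11 lower and 2 to 4 higher (4.11 to 6.2% and 5.32 to 8.0%). It gave 8 to 9 differences (2.12 to 3.33% lower and 2.06 to 3.64% higher), 0 to 1 higher in β-Mfn1KO and 0 in β-Mfn2KO. The call of *Idh3b* was lost without Ctrl replicate 1, 2, 4 or 5 or β-Mfn1/2DKO replicate 2 or 4 and with 3 other scalings or depths (DESeq2 size factors, the factors of the authors, counts drawn down to the smallest total; adjusted p of 0.104 to 0.418), that of *Pcx* without Ctrl replicate 4 or 5 or β-Mfn1/2DKO replicate 2, 4 or 5, and that of *Pdhb* without β-Mfn1/2DKO replicate 1 or 4. DESeq2 gave 4 higher and 13 lower against Ctrl. With the replicate number as a block, 4 were higher and 9 lower against Ctrl, 3 and 11 against β-Mfn2KO, 8 differences passed (all but *Dld*), and 0 passed in either single knockout. Same-numbered libraries correlated from 0.033 to 0.32 between Ctrl and β-Mfn1/2DKO and from −0.061 to 0.54 between β-Mfn2KO and β-Mfn1/2DKO. The means were 0.22 and 0.32, against 0.29 between Ctrl and β-Mfn1KO. Whether the numbers pair libraries of these groups is not known from the labels. The cause of the changes with scaling and depth class was not tested.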
